A study of Mus musculus with 6 samples.

Results

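Aminoacyl-tRNA synthetases join each amino acid to its transfer RNA, and the genes described here encode the cytosolic and mitochondrial sets of these enzymes in a mouse muscle cell line after knockdown of huntingtin. The members were taken by name from a list of 35 synthetase genes, each read by its brightest probe set among those assigned to a single gene, a probe set being a group of array probes summarised to 1 value. Of these, 34 were measured among 22180 genes in all: 18 of 19 cytosolic and 16 of 16 mitochondrial enzymes. Aars1, the cytosolic alanine enzyme, was represented by a probe set shared with Exosc6 and was left out. Current symbols are used, while the platform annotation lists 15 of the measured members without the trailing 1 (Wars for Wars1). The arrays were hybridised with total RNA of C2C12, a mouse myoblast line obtained from ATCC. Cells on 3 arrays had received pooled small interfering RNAs (siRNAs) directed at the huntingtin gene Htt, and cells on the other 3 arrays scramble siRNA as the negative control. The sample titles write "HTT KO" for the first group, but the protocol describes siRNA, so it is called Htt siRNA. All 6 arrays came from the same line, and the sources used here do not give the time after transfection. Whether replicates were separate cultures is not stated in the labels, so p-values describe the spread among these 6 samples only, which may be technical.

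The cytosolic enzymes charge the transfer RNAs that ribosomes in the cytoplasm use, and several of them sit together in a multi-synthetase complex. A separate, nuclear-encoded set is imported into mitochondria to serve the small mitochondrial translation system, while the glycine and lysine enzymes Gars1 and Kars1 work in both places from a single gene. When amino acids run short or the endoplasmic reticulum (ER) is stressed, kinases phosphorylate the initiation factor eIF2, the transcription factor ATF4 is made, and genes for amino acid synthesis, amino acid uptake and many cytosolic synthetases are known to be transcribed more.

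Expression values are log2 units processed by the authors with RMA, so a difference of 1 is a 2-fold change. Htt stood at 4.49, 4.47 and 4.65 in the Htt siRNA arrays and at 5.59, 5.60 and 5.72 in the scramble arrays, with no overlap (log2 fold change -1.10 ± 0.091, limma standard error; adjusted p = 0.0559). Arrays correlated pairwise with r from 0.981 to 0.991 over all probe sets, a correlation across features of the array that are not independent. Of the myoblast markers, 8 of 8 lay above the median gene level of 2.95. The same held for 2 of 4 epithelial, 0 of 4 endothelial and 1 of 4 leukocyte markers. In RNA from bulk cultures, a change in the share of cells in a state and a change in RNA per cell cannot be told apart.

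Most cytosolic synthetase genes varied widely between arrays, and they did so together and across the siRNA groups. Of the 18 measured, 11 spanned at least 1 log2 unit between the highest and the lowest array, where 4.95% of all genes did. In each of these 11 the 3 highest arrays were Htt siRNA 1, Htt siRNA 3 and scramble 1, and the step from the third to the fourth array in order was 0.42 to 0.80. That order of arrays was the most frequent among the members and was therefore picked from them; it was found in 14 of 18 cytosolic members, 2 of 16 mitochondrial members and 10.3% of all genes. The lowest array was Htt siRNA 2 in 10 of the 11, where it was lowest in 14% of all genes, and scramble 3 in the other, Iars1. The shares over all genes include many dim genes, whose differences RMA compresses. The median gene level was 2.95, while the cytosolic set had a median level of 8.26. Shares among genes of like signal were not computed.

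Wars1, the tryptophan enzyme, had the widest range. Its levels were 9.32, 7.52 and 8.94 with Htt siRNA and 8.65, 7.93 and 7.66 with scramble. Htt siRNA 1 was thus 3.48-fold above Htt siRNA 2 within the same group, and scramble 1 stood apart from the other scramble arrays. The range of 1.80 exceeded that of 99.2% of all genes. Lars1, which charges leucine and belongs to the multi-synthetase complex, read 8.85, 7.42 and 8.65 with Htt siRNA and 8.64, 7.83 and 7.69 with scramble. The step from the third to the fourth array was 0.80, the largest among the wide genes.

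Cars1, the cysteine enzyme, peaked in a control array. Its values were 7.04, 6.19 and 7.38 with Htt siRNA and 7.60, 6.57 and 6.32 with scramble. Yars1, for tyrosine, was highest in Htt siRNA 3, with 7.50, 6.50 and 7.85 against 7.55, 6.67 and 6.72. Eprs1 encodes a fused enzyme for glutamate and proline. It measured 9.32, 7.99 and 9.02 with Htt siRNA and 8.87, 8.22 and 8.20 with scramble. Sars1, for serine, gave 9.53, 8.41 and 9.73 with Htt siRNA and 9.47, 8.85 and 8.93 with scramble. In all 4 genes both groups held high and low arrays, so the groups overlapped. The other wide members were Nars1 (asparagine, range 1.32), Gars1 (glycine, 1.29), Iars1 (isoleucine, 1.26), Tars1 (threonine, 1.12) and Mars1 (methionine, 1.11). Over the 11 genes the range corresponded to 2.16-fold to 3.48-fold.

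**Figure D1:**
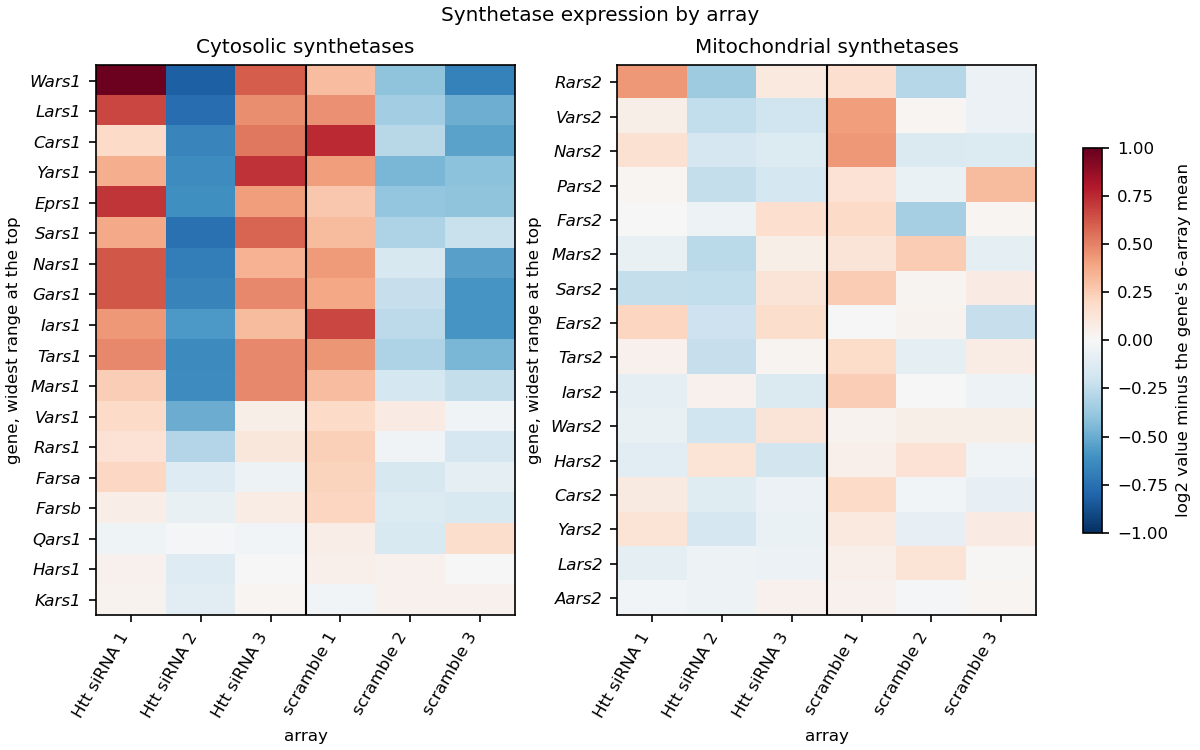
Each row is a synthetase gene and each column an array; colour gives the log2 value minus the gene's mean over the 6 arrays, and the vertical line separates Htt siRNA from scramble. The upper 11 cytosolic rows are high in Htt siRNA 1, Htt siRNA 3 and scramble 1 and low in the other arrays, while the mitochondrial rows and the lower cytosolic rows are pale.

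The remaining 7 cytosolic genes ranged from 0.15 to 0.69. Kars1, the lysine enzyme of the complex, was the steadiest, at 8.37, 8.23 and 8.36 with Htt siRNA and 8.31, 8.38 and 8.38 with scramble. Hars1, for histidine, had 7.52, 7.34 and 7.47 against 7.53, 7.52 and 7.47. Qars1, the glutamine enzyme and also a complex member, had 7.41, 7.45 and 7.44 against 7.52, 7.31 and 7.63. None of these 3 genes showed the order of arrays seen in the wide members. The subunits of the phenylalanine enzyme ranged by 0.39 (Farsa) and 0.37 (Farsb), close to the median of 0.38 over all genes. Rars1 (arginine) and Vars1 (valine) lay between, at 0.53 and 0.69. The order with Htt siRNA 1, Htt siRNA 3 and scramble 1 on top was found in Farsa, Farsb and Rars1, the last with a step of 0.15 from the third to the fourth array.

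Wide and narrow genes were found inside and outside the complex and in each enzyme class. Of the 7 complex members, 4 had a range of at least 1 (Eprs1, Iars1, Lars1 and Mars1) and Kars1, Qars1 and Rars1 did not; outside the complex it was 7 of 11. Synthetases fall into class I and class II by the fold of their catalytic domain. Among cytosolic enzymes 6 of 9 of class I and 4 of 8 of class II reached that range, and Eprs1, which joins an enzyme of each class, did too.

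Mitochondrial synthetase genes varied much less. Their median range was 0.43 against 1.19 for the cytosolic set and 0.38 for all genes, and 0 of 16 reached 1. Their probe sets also gave weaker log2 signals, which do not compare transcript amounts between genes, and RMA compresses low signals. The mean signal over the 6 arrays ran from 3.26 to 7.08 with a median of 4.45, against 5.59 to 9.43 with a median of 8.26 in the cytosolic set. The part of signal level in the narrower ranges was not tested. Of all members, 34 of 34 lay above the median gene level. Rars2, the mitochondrial arginine enzyme, had the widest range (0.79), with 6.32, 5.52 and 5.98 with Htt siRNA and 6.04, 5.59 and 5.82 with scramble. It followed the order of the wide cytosolic genes. Vars2, for valine, was 4.31, 4.01 and 4.06 against 4.67, 4.27 and 4.19. Nars2, for asparagine, was 4.06, 3.74 and 3.77 against 4.33, 3.76 and 3.77. In Vars2 and Nars2 scramble 1 alone was the highest array, as it was in 7 of the 16 mitochondrial genes. Nars2 was the only member with more than 1 probe set.

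At the other end, Aars2 (alanine) kept within 0.091, with 4.50, 4.48 and 4.57 for Htt siRNA and 4.57, 4.51 and 4.54 for scramble. Yars2 (tyrosine) ranged by 0.30 and gave 5.48, 5.18 and 5.28 against 5.44, 5.26 and 5.43. Lars2 (leucine) ranged by 0.23 and had 5.09, 5.13 and 5.13 against 5.23, 5.32 and 5.20. Lars2 was the only member in which the groups did not overlap, all knockdown arrays lying below all scramble arrays; over all genes 16% did not overlap, 5.91% in that direction.

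For 12 amino acids both a cytosolic and a mitochondrial enzyme were measured under matching names. The cytosolic gene had the wider range in 10 of the 12 pairs. The contrast was widest for tryptophan (Wars1 1.80, Wars2 0.33), leucine (1.43 and 0.23), cysteine (1.41 and 0.31) and tyrosine (1.35 and 0.30). For arginine (Rars1 0.53, Rars2 0.79) and histidine (Hars1 0.19, Hars2 0.33) the mitochondrial gene ranged more widely, and for valine both were nearly equal (0.69 and 0.66).

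**Figure D2:**
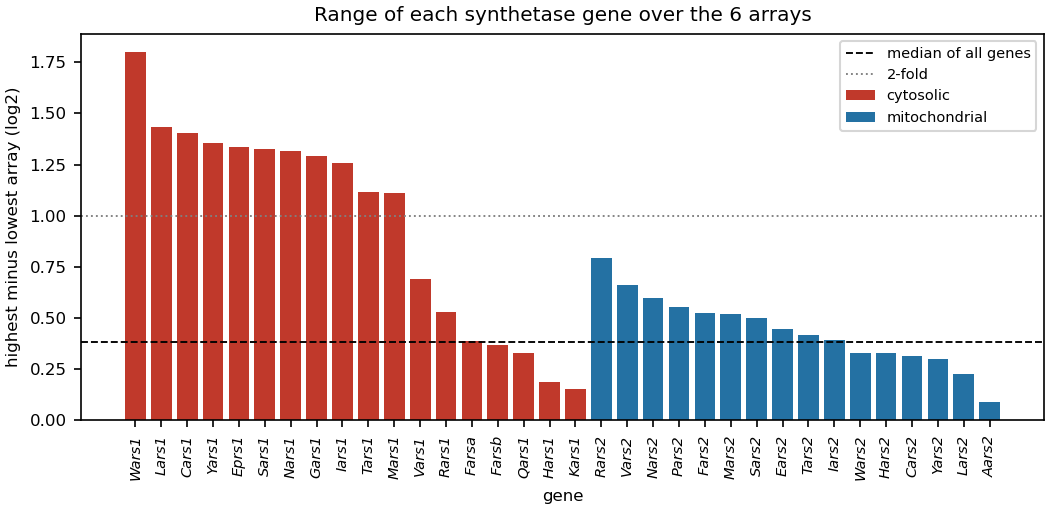
Bars give the highest minus the lowest of the 6 arrays in log2 units for each gene, cytosolic in red and mitochondrial in blue, with a dashed line at the median of all genes (0.38) and a dotted line at 1 (2-fold). The bars of 11 cytosolic genes rise above the dotted line, up to 1.80 for Wars1, and the tallest mitochondrial bar is Rars2 at 0.79.

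Htt siRNA against scramble was tested with limma over all 22180 genes, with p-values adjusted by the Benjamini-Hochberg method. No synthetase passed an adjusted p of 0.05, as was so for 0% of all genes, and 0 of 34 had an unadjusted p under 0.05, where 10.9% of all genes did. The smallest adjusted p was 0.717 among cytosolic and 0.487 among mitochondrial members. In the cytosolic set, 13 of 18 log2 fold changes were positive, with a median of 0.092, while 58.2% of all genes were positive with a median of 0.030 over all genes. In the mitochondrial set, 13 of 16 were negative, with a median of -0.10, where 41.8% of all genes were negative. Without Htt siRNA 1 the cytosolic count of 13 became 6 and the median -0.043, and without scramble 3 they became 8 and -0.020. The mitochondrial median stayed negative under each of the 14 alternatives run, with 11 to 14 negative genes. A filter on dim genes, the replicate number as a block and an intensity trend cannot change the fold changes of these members. The fits without single arrays share most of their arrays, so the alternatives are not independent checks.

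Wars1 had the largest cytosolic difference, 8.59 ± 0.95 with Htt siRNA against 8.08 ± 0.51 with scramble (SD, n = 3 each), a log2 fold change of 0.51 ± 0.45 (limma standard error; 95% interval -0.54 to 1.56; adjusted p = 0.717). The interval holds both a decrease and a more than 2-fold increase. Leaving out single arrays moved the value of Wars1 from 0.15 (without Htt siRNA 1) to 1.05 (without Htt siRNA 2). Vars1 had the lowest p among cytosolic genes with a negative value, at 6.87, 6.19 and 6.75 with Htt siRNA and 6.88, 6.77 and 6.65 with scramble (-0.16 ± 0.18, interval -0.57 to 0.24). In 0 of 18 cytosolic genes did the difference between group means exceed the SD of both groups; the median SD was 0.60 with Htt siRNA and 0.36 with scramble. In the mitochondrial set, where the median SD was 0.16 and 0.15, this was so for 4 of 16 genes. The share of all genes with such a difference was not computed, so both counts describe the members only. The smallest p of all members belonged to Pars2, the mitochondrial proline enzyme, which read 3.28, 3.03 and 3.09 with Htt siRNA and 3.41, 3.20 and 3.58 with scramble (-0.26 ± 0.12, interval -0.55 to 0.022; limma adjusted p = 0.487). Ears2, for glutamate, had the smallest p among positive mitochondrial values, with 4.19, 3.77 and 4.15 against 3.98, 4.01 and 3.75 and a difference of 0.12 ± 0.14 (interval -0.19 to 0.44). The steady genes gave narrow intervals, such as -0.23 to 0.16 for Kars1 and -0.21 to 0.16 for Aars2.

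A single array weighed on the cytosolic values. Without Htt siRNA 2 the median log2 fold change of the cytosolic genes was 0.42, and 7 of 18 (Eprs1, Gars1, Lars1, Sars1, Tars1, Wars1 and Yars1) had an unadjusted limma p under 0.05 with higher values after Htt siRNA, where 7.8% of all genes did. The adjusted p of Wars1 was then 0.118, and 0 members passed, while 2.43% of all genes did. Htt siRNA 2 was the lowest array in 14 of the 18 genes, so leaving it out was bound to raise their Htt siRNA mean. The genes also varied together, so the 7 are not separate results, and no effect of the knockdown can be read from them. Without scramble 1 the median was 0.38, and 0 of 18 had an unadjusted p under 0.05 in limma.

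**Figure D3:**
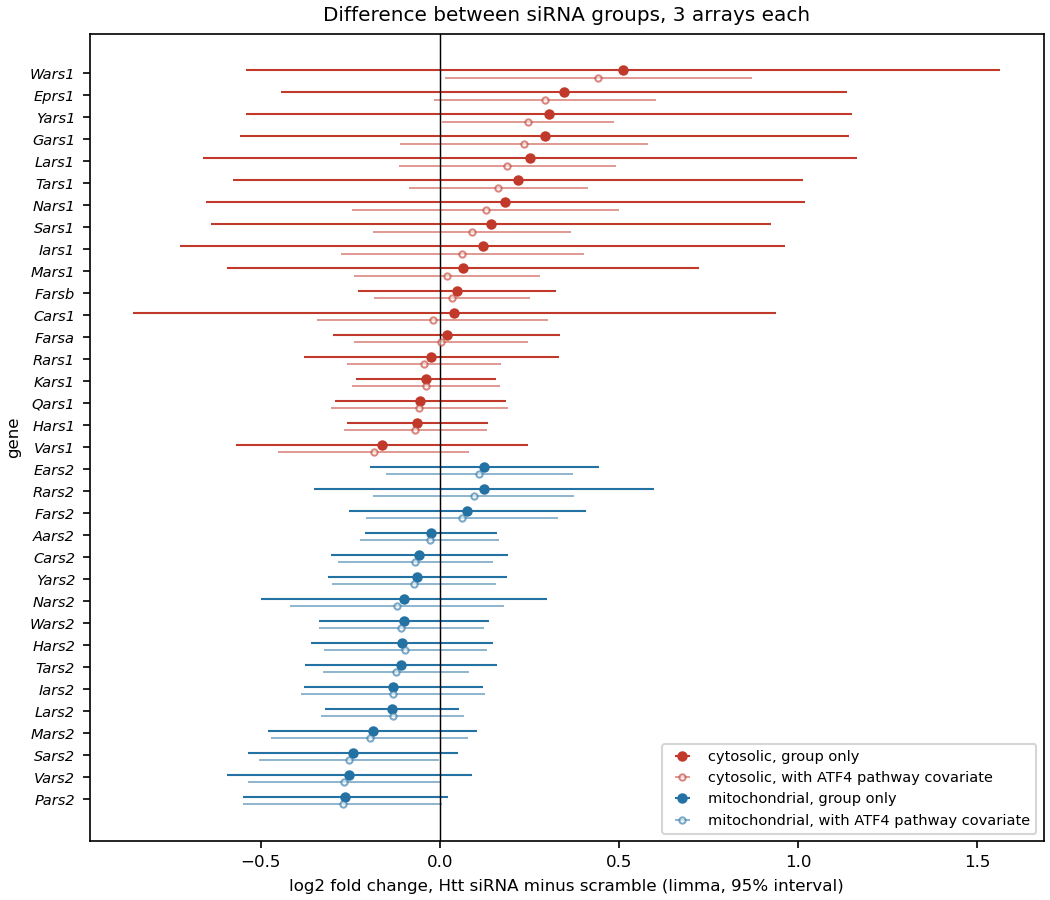
Points give the limma log2 fold change of each synthetase gene, Htt siRNA minus scramble (3 arrays each), with 95% intervals; filled points are the fit with the group alone and open points the fit that also holds the ATF4 pathway level of each array. All filled intervals span 0. Many cytosolic intervals are wide in the fit with the group alone, up to -0.54 to 1.56 for Wars1, while others are narrow, such as -0.23 to 0.16 for Kars1.

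The order of arrays seen in the cytosolic synthetases was shared by other genes of the ATF4 pathway. A list of 33 measured genes for amino acid synthesis, amino acid transport and stress regulators, which holds no synthetase, had levels of 0.51, -1.03 and 0.65 in the Htt siRNA arrays and 0.86, -0.62 and -0.37 in the scramble arrays, as the mean log2 deviation of its genes from their 6-array means. The cytosolic synthetases stood at 0.35, -0.48 and 0.31 against 0.32, -0.20 and -0.30 on the same measure. The mitochondrial synthetases were at 0.028, -0.15 and -0.012 against 0.16, -0.024 and -0.00495. The arrays above 0 were the same in the ATF4 pathway list and the cytosolic set. All 3 sets were lowest in Htt siRNA 2, and the ATF4 pathway list and the mitochondrial set were highest in scramble 1. Of the 33 genes, 30 had Htt siRNA 1, Htt siRNA 3 and scramble 1 as the 3 highest arrays, and 30 ranged by at least 1.

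Most named members of that pathway had the same arrays on top. Of the 3 genes of the list with the smallest limma p, Slc7a11 had them too. Cbs was highest in the 3 Htt siRNA arrays, as 10.1% of all genes were, and Ddit4 in Htt siRNA 3, scramble 1 and scramble 3. Atf4 itself had 8.60, 7.70 and 8.94 with Htt siRNA and 8.91, 7.42 and 8.19 with scramble. Ddit3, the stress transcription factor CHOP, had 9.06, 6.37 and 9.32 against 9.57, 5.79 and 7.35. Asns, asparagine synthetase, which makes the amino acid that Nars1 charges, had 9.35, 7.46 and 9.37 against 9.32, 8.63 and 8.18. In Atf4, Ddit3 and Asns too the siRNA groups overlapped. The range was 4.56 for the pseudokinase gene Trib3 and 2.73 for the glutathione-degrading enzyme gene Chac1. Hspa5, the ER chaperone BiP, ranged by 1.50, and the list of 19 ER chaperone and quality control genes stood at 0.72, -0.62 and 0.57 against 0.34, -0.62 and -0.39. In this list 18 of 19 genes had the same 3 arrays on top. With limma, 0 of 33 ATF4 pathway genes and 1 of 19 ER genes had an unadjusted p under 0.05 between the siRNA groups, the latter Derl3 (0.26 ± 0.088), where 10.9% of all genes did. The log2 fold change was positive in 19 of 19 ER genes, with a median of 0.45, and in 23 of 33 ATF4 pathway genes, with a median of 0.099. With the ATF4 pathway level of each array as a covariate, 11 of 19 ER genes had an unadjusted limma p under 0.05 with higher values after Htt siRNA, where 7.33% of all genes did. In that fit 0 of 19 passed an adjusted p of 0.05, while 0.627% of all genes did.

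Genes of DNA replication took another order. The list of 15 S phase genes stood at -1.04, 0.32 and -0.72 with Htt siRNA and 0.14, 0.78 and 0.52 with scramble. Htt siRNA 1 and 3 were thus low in S phase genes and high in cytosolic synthetases, whereas scramble 1 was high in synthetases and lay above the 6-array mean in S phase genes. The log2 fold change was negative in 15 of 15 S phase genes, with a median of -1.01. In limma 13 of 15 had an unadjusted p under 0.05 with lower values after Htt siRNA, and 0 passed an adjusted p of 0.05. Over all genes 1140 of 22180 had such a p with lower values, and 10.9% in either direction. With the ATF4 pathway level as a covariate, 15 of 15 had an unadjusted limma p under 0.05 with lower values, where 7.03% of all genes did. In that fit 6 of 15 passed an adjusted p of 0.05, while 0.627% of all genes did. The part of these lists in the synthetase values was not tested.

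**Figure D4:**
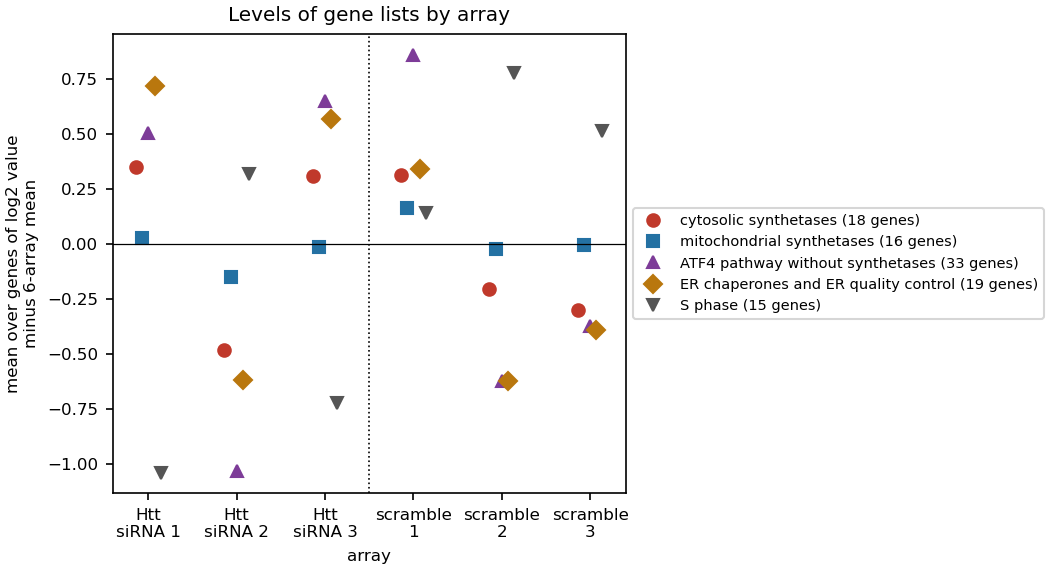
Each point is the mean over a list's genes of the log2 value minus the gene's 6-array mean, shown for each array, with a dotted line between Htt siRNA and scramble. Cytosolic synthetases, ATF4 pathway genes and ER genes lie above 0 in Htt siRNA 1, Htt siRNA 3 and scramble 1 and below 0 in the other arrays, while mitochondrial synthetases stay between -0.15 and 0.16.

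Genes that work beside the synthetases were mixed. Xpot, which exports transfer RNA from the nucleus, had 8.47, 7.01 and 8.26 with Htt siRNA and 8.29, 7.37 and 7.12 with scramble, the order of the wide synthetases. The scaffold proteins of the multi-synthetase complex, Aimp1 and Eef1e1, ranged by 0.31 and 0.45. Aimp1 was higher in each knockdown array (7.48 ± 0.11 against 7.31 ± 0.024, SD, n = 3; 0.17 ± 0.089, limma adjusted p = 0.525), a direction without overlap that 10.1% of all genes showed. Of 12 genes for eIF2, its exchange factor, kinases and phosphatase subunits, 6 had Htt siRNA 1, Htt siRNA 3 and scramble 1 on top, among them the ER stress kinase gene Eif2ak3 with 5.80, 5.25 and 5.83 against 5.55, 5.13 and 5.27. The cytosolic elongation factors, which carry charged transfer RNA to the ribosome or move the ribosome along, were steady, with a median range of 0.23 over 5 genes and 10.84, 10.73 and 10.84 against 10.83, 10.66 and 10.85 for Eef2.

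On the mitochondrial side, partners of the synthetases had narrow ranges too, with medians of 0.47 over 7 charging helpers and 0.39 over 9 translation factors. Mitochondria make glutaminyl-tRNA by charging the transfer RNA with glutamate and then amidating it, through a complex that includes Qrsl1, Gatb and Gatc. Qrsl1 had 4.70, 4.52 and 4.13 with Htt siRNA and 4.83, 4.75 and 4.74 with scramble, so that all knockdown arrays lay below all scramble arrays (-0.32 ± 0.14, limma adjusted p = 0.474). Mto1, which modifies mitochondrial transfer RNA, did not overlap either (-0.16 ± 0.088, limma adjusted p = 0.537). Thus 2 of 7 helpers and 2 of 9 translation factors lay lower without overlap, where 5.91% of all genes did. The median log2 fold change was -0.0034 over the helpers and -0.13 over the translation factors, with 7 of 9 of the latter negative. The lowest p among the latter was that of Mrrf, the ribosome recycling factor (-0.27 ± 0.12, limma adjusted p = 0.487). In both lists 0 genes had an unadjusted p under 0.05 in limma, where 10.9% of all genes did.

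Because the wide cytosolic genes and the ATF4 pathway genes shared an order of arrays, the promoters were searched for the composite element that ATF4 binds with C/EBP proteins. The search used TGATGNAA on both strands, in RefSeq sequence of the GRCm38.p6 build from 250 bases before to 50 bases after each gene's start, and 25 of the 34 members had a sequence there. The motif was found in 4 of 11 cytosolic genes and 0 of 14 mitochondrial genes, in 9 of 28 ATF4 pathway genes and in 4.51% of all 27025 genes with a sequence. The 4 cytosolic genes were Gars1, Iars1, Tars1 and Yars1, each with a range of at least 1. In 3 other wide genes with a sequence (Eprs1, Mars1 and Sars1) and in the 4 narrow ones (Farsa, Farsb, Kars1 and Qars1) these letters were not in the window. The wide genes Wars1, Lars1, Cars1 and Nars1 and the narrow genes Hars1, Rars1 and Vars1 had no sequence and were not searched. The 30 bases around each match are shown 5′ to 3′ along the gene, with the 8 bases of the motif in capitals, to compare where it lies. In Gars1 and Tars1 the first base of the match lies 30 and 15 bases before the start, and in Iars1 and Yars1 it is base 8 and base 4 of the transcript.
Gars1, chr6:55037960-55037989, plus strand: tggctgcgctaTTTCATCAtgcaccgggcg
Tars1, chr15:11399655-11399684, minus strand: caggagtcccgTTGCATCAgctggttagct
Iars1, chr13:49682126-49682155, plus strand: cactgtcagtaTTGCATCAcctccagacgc
Yars1, chr4:129189895-129189924, plus strand: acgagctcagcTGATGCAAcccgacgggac

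In Gars1, Iars1 and Tars1 the motif is read on the strand opposite to the gene, and in Yars1 on the same strand. The form with C at the open base, TGATGCAA, which is contained in the first motif, was found in Iars1, Tars1 and Yars1 and in 1.03% of all genes. The cyclic AMP element TGACGTCA was found in 0 of 11 cytosolic and 0 of 14 mitochondrial genes (2.03% of all genes). The E-box CACGTG was found in Farsb, Iars1 and Tars1 and in Ears2 (8.09% of all genes). A match describes letters in a window, and binding was not measured. The 150 bases before the start are shown for a wide gene with the motif (Tars1), a wide gene in which these letters were not found (Sars1) and the narrowest cytosolic gene (Kars1), with the motif in capitals.
Tars1, chr15:11399659-11399808, minus strand: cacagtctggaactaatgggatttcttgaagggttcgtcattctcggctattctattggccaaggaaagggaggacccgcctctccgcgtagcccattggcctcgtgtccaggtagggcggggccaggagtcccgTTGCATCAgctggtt
Sars1, chr3:108445260-108445409, minus strand: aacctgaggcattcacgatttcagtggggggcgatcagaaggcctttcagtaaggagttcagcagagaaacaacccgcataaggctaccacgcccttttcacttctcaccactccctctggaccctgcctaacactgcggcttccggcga
Kars1, chr8:112011355-112011504, minus strand: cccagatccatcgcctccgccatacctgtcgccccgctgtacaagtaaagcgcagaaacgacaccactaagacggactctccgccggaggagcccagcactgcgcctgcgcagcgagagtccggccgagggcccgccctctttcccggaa

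The spread between arrays within a group sets the width of the intervals, so the comparison of siRNA groups was also fitted with the ATF4 pathway level of each array as a covariate. The list holds no synthetase, but its level and that of the cytosolic genes come from the same 6 arrays. The median standard error of the cytosolic genes was 0.34 with the group alone and 0.11 with the covariate, and that of the mitochondrial genes 0.12 and 0.11. With the covariate Wars1 had a log2 fold change of 0.44 ± 0.19 (interval 0.014 to 0.87) and Yars1 of 0.25 ± 0.10 (interval 0.0051 to 0.49). These 2 of 18 cytosolic genes had an unadjusted limma p under 0.05 with higher values after Htt siRNA, where 7.33% of all genes did. Of 16 mitochondrial genes 2 had one with lower values, Sars2 (-0.25 ± 0.11) and Vars2 (-0.27 ± 0.12), where 7.03% of all genes did. The smallest adjusted p of a member was 0.331 in limma, and 0 members passed, while 0.627% of all genes did.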

How the data were processed

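The authors deposited log2 expression values of 41345 probe sets on 6 arrays; the submitters' processing notes name RMA and affy, without versions. RMA includes quantile normalization, which forces 1 distribution on the probe intensities of all arrays and hides any difference in total RNA between cells. The deposited values, summarised per probe set, had array medians from 2.59 to 2.67. The genome build of the array is not given in the sources used here, and the number of arrays limits the precision. The platform annotation listed 25335 probe sets, 23521 with 1 symbol and 1814 with several; the brightest with 1 symbol stood for each of 22180 genes. Groups came from the sample titles. Tests used limma 3.58.1 (lmFit, eBayes; group as the only term, two-sided) in R 4.3.3, checked on simulated data, with Benjamini-Hochberg adjustment over all genes; Python 3.11.15 made the summaries. Alternatives were centring, repeated quantile normalization, a filter on dim genes, the mean of probe sets, leaving out each array, a replicate block, array weights, an intensity trend and an ATF4 pathway covariate.

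Members and gene lists were chosen with earlier results of these data known. Values per array are given for members with an unadjusted p under 0.05 (0 here), for the 6 cytosolic and 4 mitochondrial genes of widest range and the 3 of each class with the narrowest, and for the smallest p in each class and direction. For other lists up to 3 genes of smallest p may be named, besides Htt, Atf4, Ddit3, Asns, Trib3, Chac1 and Hspa5. Other genes were named after their values were seen. Motifs and the sequences printed were chosen after the expression values were seen.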

Additional observations from a re-analysis of the deposited data

How the results depend on the processing

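Over the 14 alternatives run, 0 members passed the adjusted threshold. The count of cytosolic genes with an unadjusted limma p under 0.05 was 0 as reported, 0 to 7 without single arrays and 2 with the ATF4 pathway covariate. The mitochondrial count was 0 as reported, 0 to 1 without single arrays, 3 with arrays centred on their medians, 1 with repeated quantile normalization and 2 with the covariate. Centring also moved the median log2 fold change of all genes, from 0.030 to -0.033. Apart from the fit as reported, the share of all genes with such a p was computed only without Htt siRNA 2 and with the covariate. The counts from the other fits, the block included, therefore have no background and are not a result about the members. With the replicate number as a block the mitochondrial count was 2, both lower. The block gave 98 calls over all genes against 0, and changed no other call here. The labels do not say what the numbers mark. Same-numbered arrays correlated at 0.35, 0.36 and 0.0064 in their deviations from the group means, the first pair of values being the highest of the 9 between groups, while Htt siRNA 3 correlated best with scramble 1 (0.22); pairing was not assumed. Without single arrays the median log2 fold change ran from -0.043 to 0.42 for cytosolic and from -0.13 to -0.032 for mitochondrial genes, and the median range from 0.91 to 1.19 and from 0.32 to 0.43. Some fold changes changed sign. Without single arrays they spanned -0.22 to 0.43 for Cars1, -0.021 to 0.69 for Lars1, -0.11 to 0.55 for Sars1, -0.066 to 0.33 for Rars2, -0.063 to 0.0080 for Kars1, -0.30 to 0.044 for Vars1, -0.15 to 0.0039 for Yars2, -0.20 to 0.090 for Nars2 and -0.15 to 0.018 for Qars1. Cars1 was also -0.022 with centred arrays and -0.020 with the covariate, Aars2 0.047 with repeated quantile normalization and Nars2 0.049 with the mean of its probe sets. Wars1 (0.15 to 1.05), Eprs1 (0.075 to 0.74) and Yars1 (0.019 to 0.70) kept their sign without single arrays. The cause of these changes was not tested. Weak signals are compressed in RMA values, which limits the differences that dim probe sets can show.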
